A study of Rattus norvegicus with 16 samples.

Results

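The 7 genes described here, Cyp7a1, Cyp8b1, Cyp27a1, Cyp7b1, Baat, Slc27a5 and Fgfr4, were chosen by name as the main bile acid synthesis enzymes of the hepatocyte together with a receptor that represses the pathway. They are 7 of 20760 genes tested on 16 Agilent arrays of primary rat hepatocytes. Each has 1 probe on the array, and that probe was well above background in all 32 channel measurements.

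The cells were hepatocytes of male Sprague Dawley rats kept in Williams Medium E. At 48 h after plating they received SQ1 at 100 µM or pravastatin at 30 µM, each for 48 h, and untreated cultures served as controls. SQ1 is given in the labels by its code name and is known from hepatocyte work as squalestatin 1, which inhibits squalene synthase. Pravastatin, a statin, acts further upstream in the same route to cholesterol. Each array held 1 treated and 1 untreated RNA, labelled with A555 and A647, and each drug had 8 arrays, 4 in each dye orientation. Doses of the drugs differed, so every comparison between them is one between these doses. They are given as the labels print them, and the one for SQ1, high for squalestatin 1, could not be checked. The design text calls the arrays biological replicates, and the labels do not say how many rats the cells came from. If cultures share a rat, the p-values measure only the spread between cultures.

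Bile acids are made from cholesterol in the liver. In the classic route, Cyp7a1 adds the first hydroxyl group and sets the rate, and Cyp8b1 adds the hydroxyl group that distinguishes cholic acid. In the alternative route, Cyp27a1 oxidises the sterol side chain in mitochondria and Cyp7b1 hydroxylates the resulting oxysterols. Slc27a5, a bile acid CoA ligase, and Baat, the acyltransferase that follows it, join bile acids to taurine or glycine. Fgfr4 is the hepatocyte receptor through which the gut hormone Fgf15 lowers Cyp7a1 expression. The nuclear receptor Nr1h4 (FXR) senses bile acids and induces Nr0b2 (SHP), which holds back Cyp7a1 and Cyp8b1, while Nr5a2 (LRH-1) and Hnf4a bind to and activate their promoters.

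Promoters were looked up because several members moved together. The RefSeq table of assembly GRCr8 held 5 of the 7, from 250 bases before to 50 bases after the start, and Cyp7a1 and Cyp7b1 were not among them. The 3 promoters with a match to any of 4 motifs are shown with that of Slc27a5, which fell most with SQ1 among the 7, 5′ to 3′ on the gene's strand, with the match in capitals. The array files state build rn4, and these coordinates are those of GRCr8.
Cyp8b1, chr8:130457543-130457842, minus strand: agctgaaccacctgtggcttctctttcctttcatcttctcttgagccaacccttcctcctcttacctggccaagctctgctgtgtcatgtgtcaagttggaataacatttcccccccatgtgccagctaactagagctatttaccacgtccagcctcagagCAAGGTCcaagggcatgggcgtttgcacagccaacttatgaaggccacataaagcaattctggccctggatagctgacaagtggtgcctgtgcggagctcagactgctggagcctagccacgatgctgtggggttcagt
Cyp27a1, chr9:83713282-83713581, plus strand: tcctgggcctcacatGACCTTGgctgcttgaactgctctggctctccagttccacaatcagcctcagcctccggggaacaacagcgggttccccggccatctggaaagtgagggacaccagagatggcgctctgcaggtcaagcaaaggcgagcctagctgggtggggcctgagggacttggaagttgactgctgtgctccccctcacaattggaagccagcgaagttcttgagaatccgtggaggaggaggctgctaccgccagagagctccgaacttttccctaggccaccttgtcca
Baat, chr5:68656088-68656387, minus strand: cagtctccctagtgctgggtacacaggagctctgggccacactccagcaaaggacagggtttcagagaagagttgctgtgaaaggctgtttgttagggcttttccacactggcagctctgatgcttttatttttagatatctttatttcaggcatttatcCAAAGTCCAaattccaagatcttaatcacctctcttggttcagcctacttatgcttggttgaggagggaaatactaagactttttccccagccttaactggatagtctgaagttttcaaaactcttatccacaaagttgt
Slc27a5, chr1:82699286-82699585, minus strand: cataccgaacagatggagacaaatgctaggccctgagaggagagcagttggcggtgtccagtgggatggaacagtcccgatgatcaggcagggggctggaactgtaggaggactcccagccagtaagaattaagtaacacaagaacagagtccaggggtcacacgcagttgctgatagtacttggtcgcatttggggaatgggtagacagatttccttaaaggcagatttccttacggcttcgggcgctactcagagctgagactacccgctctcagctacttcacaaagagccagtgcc

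The motifs were searched on both strands, and none overlapped another match. The LRH-1 core CAAGGTC lay in Cyp8b1 at -89 and, as GACCTTG on the other strand, in Cyp27a1 at -235. It occurs in 4.201% of the 33469 promoters in the table. The HNF4 site CAAAGTCCA lay in Baat at -90 and occurs in 0.3914% of promoters. The HNF1 site (in 0.002988% of promoters) and the sterol regulatory element (in 0.1255%), searched by their usual consensus, had no match in the 5 windows. Slc27a5 and Fgfr4 (chr17:9481340-9481639, minus strand) matched none of the 4. These matches describe letters in the window and are not measured sites.

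The deposited value table had its drugs exchanged relative to the scanner files: a column named for SQ1 matched the pravastatin array with that replicate number, and the reverse. The correlation was 0.999 to 1.00 with the matching array, against 0.450 to 0.562 with the array the column is named for. Drug names here are those that the labels give to the scanner files, and a reader who takes them from the value table would exchange every SQ1 and pravastatin value. Which naming the authors meant could not be told, and every statement about a drug here depends on it. Scanner file names give the same control number to same-numbered arrays of both drugs, so the drugs share their untreated cultures. The file names also divide the arrays into 2 culture series of 4 arrays per drug, which coincide with 2 scan days and 4 slides. Each slide held 1 drug and 1 series, so slide cannot be told apart from drug, nor series from scan day. Pravastatin replicate 1 stood apart for 3 of the genes named here (Cyp7a1, Nr0b2 and Foxa2) and is given separately where it matters. Genes of the sterol response checked that the drugs acted. With SQ1 10 of 10 rose, where 32.6% of all genes did, and with pravastatin 10 of 10, where 19.4% did. Among them was the sterol sensor Insig1, up by 2.91 ± 0.04 with SQ1 and 2.62 ± 0.04 with pravastatin on the log2 scale.

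All 7 members fell with SQ1, by between 1.54-fold and 4.41-fold, in every one of the 8 arrays. In the same comparison 31.2% of all genes tested fell and 32.6% rose, 63.8% in all, so a fall alone was common. The median change of the members was -1.73 on the log2 scale, against 0.01 over all genes tested. With pravastatin 6 of the 7 fell, where 19.6% of all genes fell and 19.4% rose, 38.9% in all, and the members' median was -0.44 against 0.00. Cyp7a1 was the member that pravastatin lowered most, and Slc27a5 the one for which no change was called. Calls are at an adjusted p under 0.05 by limma with Benjamini-Hochberg adjustment over all genes tested, and values are log2 of treated over untreated with the model's SE.

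**Figure D1:**
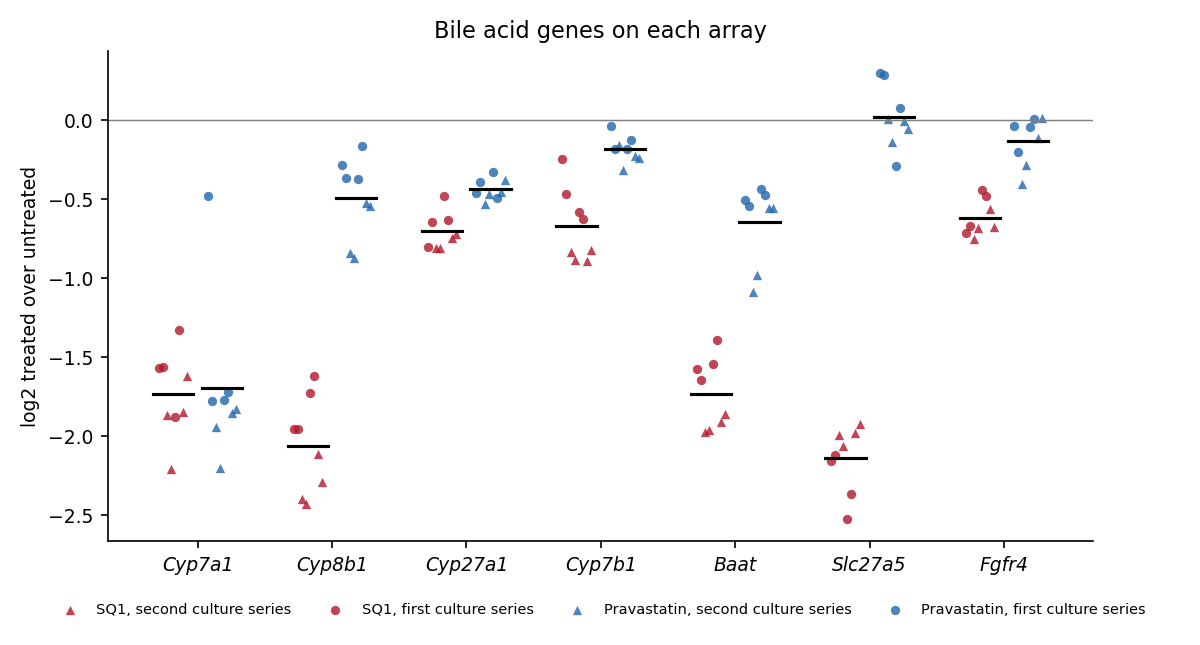
Log2 ratio of treated over untreated signal for the 7 genes on each array, SQ1 in red and pravastatin in blue, with triangles for the second and circles for the first culture series and black bars for the model's estimate. Every SQ1 point lies below 0, Cyp7a1 is the one gene whose SQ1 and pravastatin estimates lie side by side, and a single pravastatin array lies far above the others for Cyp7a1.

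Cyp7a1, the rate-setting enzyme of the classic route, had log2 ratios from -2.21 to -1.33 on the SQ1 arrays, with a median of -1.73. On the pravastatin arrays they ran from -2.20 to -0.48, with a median of -1.80. The array at -0.48 was pravastatin replicate 1, and the other 7 lay at or below -1.72. Its normalised log2 level was 7.70 to 8.29 (median 8.18) with SQ1, against 9.58 to 10.18 (median 9.84) in the untreated cells of the same arrays. With pravastatin it was 7.81 to 9.08 (median 8.00), against 9.56 to 10.11 (median 9.80) in untreated cells. Treated and untreated levels did not overlap with either drug.

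The fit put Cyp7a1 at -1.73 ± 0.13 with SQ1, a 3.33-fold fall (adjusted p = 1.8e-09). With pravastatin it was -1.70 ± 0.13, a 3.24-fold fall (adjusted p = 1.4e-08), and -1.88 without replicate 1 (adjusted p = 2.3e-12). Counted from the lowest of the 20760 estimates, it ranked 52 with SQ1 and 4 with pravastatin. Agilent's own processed signals gave -2.05 with SQ1 and, more than 1.5-fold away from the value above, -2.32 with pravastatin. The probe sits in 10 spots on each array, and the SD of their log2 ratios was 0.037 to 0.126 between spots. On pravastatin replicate 1 the 10 spots lay between -0.54 and -0.31. Across arrays, its residual SD was 0.43, at the 99.6th percentile of all genes, whose median was 0.095. Without pravastatin replicate 1 it was 0.22, at the 95.6th percentile.

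Cyp8b1, the hydroxylase that leads the classic route to cholic acid, had log2 ratios of -2.43 to -1.62 with SQ1 (median -2.03) and of -0.87 to -0.16 with pravastatin (median -0.45). Its normalised log2 level was 8.32 to 8.77 with SQ1, against 10.31 to 10.89 in untreated cells. With pravastatin it was 9.88 to 10.38, against 10.27 to 10.83 in untreated cells. The groups were well apart with SQ1 and overlapped with pravastatin, although the ratio was below 0 on all 8 arrays of both. The overlap came from pravastatin replicate 5, whose untreated level was 10.27. On the other pravastatin arrays untreated levels began at 10.54, and treated levels were at most 10.38. The estimates were -2.06 ± 0.08 with SQ1, a 4.17-fold fall (adjusted p = 2.4e-13), and -0.50 ± 0.08 with pravastatin, a 1.41-fold fall (adjusted p = 1.0e-04).

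**Figure D2:**
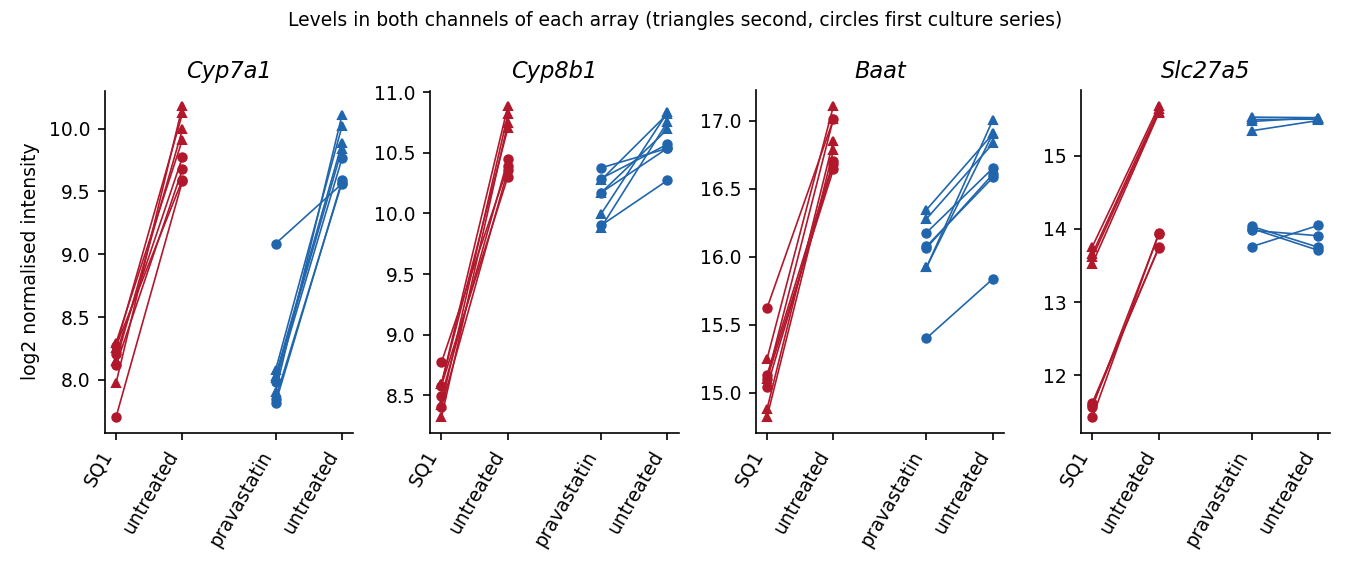
Log2 normalised intensity of Cyp7a1, Cyp8b1, Baat and Slc27a5 in the treated and the untreated channel of each array, joined by a line, with triangles for the second and circles for the first culture series. Slc27a5 forms separate sets of lines by culture series, at 15.59 to 15.68 and at 13.74 to 13.95 in the untreated cells of the SQ1 arrays.

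Cyp27a1, the mitochondrial side-chain hydroxylase of the alternative route, had log2 ratios of -0.81 to -0.48 with SQ1 (median -0.73) and of -0.53 to -0.33 with pravastatin (median -0.46). Its levels did not overlap with those of untreated cells for either drug: 13.49 to 13.70 against 14.18 to 14.42 with SQ1, and 13.68 to 14.05 against 14.07 to 14.43 with pravastatin. The estimates were -0.70 ± 0.03 with SQ1, a 1.63-fold fall (adjusted p = 8.9e-13), and -0.44 ± 0.03 with pravastatin, a 1.35-fold fall (adjusted p = 3.8e-09). Its residual SD was 0.085.

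Cyp7b1, the oxysterol hydroxylase, had log2 ratios of -0.89 to -0.25 with SQ1 (median -0.72) and of -0.32 to -0.04 with pravastatin (median -0.18). Its levels were 9.96 to 10.47 with SQ1, against 10.69 to 11.04 in untreated cells, and 10.58 to 10.94 with pravastatin, against 10.80 to 11.13. The groups were apart with SQ1 and overlapped with pravastatin. The estimates were -0.67 ± 0.06 with SQ1, a 1.59-fold fall (adjusted p = 7.7e-09), and -0.18 ± 0.06 with pravastatin, a 1.14-fold fall (adjusted p = 0.014). The pravastatin call was lost within the first culture series, at -0.13 with an adjusted p of 0.082.

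Of the conjugation enzymes, Slc27a5 held the largest contrast between the drugs among the 7 members. Slc27a5, the CoA ligase, had log2 ratios of -2.52 to -1.92 with SQ1 (median -2.09), and of -0.29 to 0.30 with pravastatin (median 0.00), 4 of 8 of them below 0. The SQ1 estimate of -2.14 ± 0.06, a 4.41-fold fall, had an adjusted p of 3.0e-15 and was the lowest of the 7 members. The pravastatin estimate was 0.02 ± 0.06, with a 95% interval of -0.11 to 0.15 and an adjusted p of 0.82. Its levels must be read by culture series. In the second series they were 13.52 to 13.76 with SQ1, against 15.59 to 15.68 in untreated cells. In the first series they were 11.42 to 11.62 with SQ1, against 13.74 to 13.95 in untreated cells, and neither series showed an overlap. With pravastatin, treated and untreated levels overlapped in both series, at 15.35 to 15.53 against 15.49 to 15.53 in the second and 13.76 to 14.04 against 13.71 to 14.05 in the first.

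Baat, the acyltransferase that completes conjugation, had log2 ratios of -1.98 to -1.39 with SQ1 (median -1.75) and of -1.09 to -0.44 with pravastatin (median -0.55). Its levels were 14.82 to 15.62 with SQ1, against 16.64 to 17.11 in untreated cells, and 15.40 to 16.35 with pravastatin, against 15.84 to 17.01. They were apart with SQ1 and overlapped with pravastatin. The overlap came from pravastatin replicate 5, at 15.40 treated and 15.84 untreated. By its control number, the same untreated culture read 16.64 on SQ1 replicate 5. On the other pravastatin arrays treated levels reached 16.35 and untreated levels began at 16.58. The estimates were -1.73 ± 0.07 with SQ1, a 3.32-fold fall (adjusted p = 2.5e-13), and -0.64 ± 0.07 with pravastatin, a 1.56-fold fall (adjusted p = 9.2e-07).

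Fgfr4, the receptor, had log2 ratios of -0.75 to -0.44 with SQ1 (median -0.67) and of -0.40 to 0.01 with pravastatin (median -0.08), 6 of 8 of them below 0. Its levels were 7.84 to 8.06 with SQ1, against 8.49 to 8.68 in untreated cells, with no overlap, and 8.24 to 8.65 with pravastatin, against 8.47 to 8.77, with overlap. The estimates were -0.62 ± 0.03 with SQ1, a 1.54-fold fall (adjusted p = 1.5e-11), and -0.13 ± 0.03 with pravastatin (adjusted p = 0.0038). Within the first culture series the pravastatin value was -0.07, with an adjusted p of 0.25. Over all 7, levels of SQ1-treated and untreated cells did not overlap for 6 members, with treated cells lower, as for 10.4% of all genes. With pravastatin they did not overlap for 2, Cyp7a1 and Cyp27a1, as for 2.55% of all genes. For Cyp8b1 and Baat the overlap came from pravastatin replicate 5 alone.

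Markers of other properties of the cultures moved as well. Their counts stand beside 31.2% of all genes falling and 32.6% rising with SQ1, and 19.6% and 19.4% with pravastatin. Of 12 hepatocyte markers, 12 fell with SQ1 (median -0.71, from -2.00 for Cyp2e1 to -0.24 for Ttr), and their summed level was 888053 to 1466055 in SQ1-treated cells, against 1494777 to 2098897 in untreated cells. With pravastatin 9 fell, 2 rose and 1 was not called, and the sums were 1234441 to 1728126 against 1254639 to 1981753. Of 14 macrophage markers, 14 fell with each drug (medians -0.56 and -0.83), and their sums were 46069 to 69289 against 63707 to 114817 with SQ1 and 44020 to 51858 against 68993 to 102938 with pravastatin. Of 9 stellate cell and fibroblast markers tested, 9 fell with SQ1 and 4 with pravastatin, and their sums were 28438 to 38758 against 48814 to 55278 with SQ1 and 43049 to 52850 against 49989 to 56628 with pravastatin. Of 5 endothelial markers tested, 4 fell with SQ1 and 2 with pravastatin. Of 6 cholangiocyte markers tested, 1 rose and 3 fell with SQ1, while 3 rose and 1 fell with pravastatin. Their sums were higher with SQ1, at 29282 to 34833 against 19854 to 24307 in untreated cells, without overlap. Yet the median change of the 6 with SQ1 was -0.08 and the highest 0.57, and a sum weighs the brightest markers most. With pravastatin the sums were 23384 to 32726 against 18970 to 25085, with overlap. No marker has a true 0 on an array, and the part of these shifts in the members' falls was not tested. In RNA from whole cultures, fewer hepatocytes and less RNA of a gene per hepatocyte cannot be told apart.

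The question of which members separate the drugs was tested as SQ1 minus pravastatin in the same fit. That fit did not pair same-numbered arrays. Of the 7 members, 6 were lower with SQ1, where 19.5% of all genes were (37.9% changed in either direction). Cyp7a1 was the exception. For each of the 6 the SQ1 ratio was the lower on all 8 pairs of same-numbered arrays. The share of all genes lower on all 8 pairs was not counted, and each pair shares its untreated culture.

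**Figure D3:**
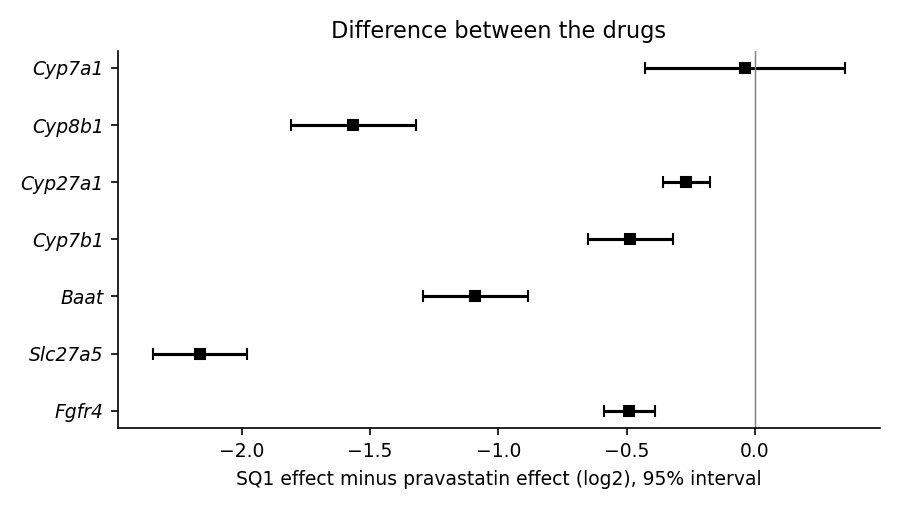
Difference between the SQ1 and the pravastatin log2 change for each gene (squares) with its 95% interval (lines). The interval of Cyp7a1, -0.43 to 0.35, spans 0, and the other 6 lie below 0.

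Slc27a5 differed most, by -2.16 ± 0.09 on the log2 scale, 4.48-fold (adjusted p = 2.4e-12), and ranked 4 from the lowest of all 20760 differences. Cyp8b1 differed by -1.56 ± 0.12, 2.96-fold (adjusted p = 6.9e-09), and Baat by -1.09 ± 0.10, 2.13-fold (adjusted p = 7.9e-08). The smaller differences were -0.48 ± 0.08 for Cyp7b1 (adjusted p = 9.2e-05), -0.49 ± 0.05 for Fgfr4 (adjusted p = 1.9e-07) and -0.27 ± 0.04 for Cyp27a1 (adjusted p = 8.4e-05). The order of the members therefore differed between the drugs: Slc27a5 and Cyp8b1 had the lowest SQ1 estimates, and Cyp7a1 by far the lowest pravastatin estimate.

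Cyp7a1 differed by -0.04 ± 0.19 (adjusted p = 0.90), and its 95% interval leaves room for a difference of up to 0.43 in the direction of SQ1 or 0.35 in that of pravastatin. With the replicate number as a random block the SE of this difference was 0.14 (adjusted p = 0.85). Of 8 pairs, 3 had the lower value with SQ1. Without pravastatin replicate 1 the difference was 0.15 (adjusted p = 0.28). SQ1 arrays had a wider spread of log ratios over all genes than pravastatin arrays. When arrays were scaled to one spread, the Cyp7a1 difference became 0.76 (adjusted p = 7.8e-05). That of Cyp27a1 turned to 0.10 (adjusted p = 0.65), while the other 5 stayed below 0 and called. Over all 29 alternatives, the smallest differences of these 5 in size were -0.93 for Cyp8b1, -0.45 for Baat and -1.75 for Slc27a5. For Cyp7b1 and Fgfr4 they were -0.28 and -0.32.

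Further enzymes of the pathway and its side routes were less uniform in direction with SQ1. Of 13 further bile acid enzymes listed, 12 were tested. With SQ1, 7 fell and 3 rose (median -0.35), where 31.2% of all genes fell and 32.6% rose. With pravastatin 9 fell and 0 rose (median -0.31), where 19.6% of all genes fell and 19.4% rose. Akr1d1, the reductase that saturates the sterol ring, fell most with both drugs. Its log2 ratios ran from -2.22 to -0.51 with SQ1 and from -1.85 to -0.14 with pravastatin. The least negative value with each drug came from replicate 6, whose arrays share an untreated culture. The estimates were -1.52 ± 0.18 (adjusted p = 6.9e-07) with SQ1 and -1.15 ± 0.18 (adjusted p = 6.0e-05) with pravastatin. They differed by -0.37 ± 0.25 (adjusted p = 0.29), a difference that was called with the replicate number as a fixed block (adjusted p = 0.0030), with culture series as a term (0.041) and within the second series, at -0.49 (0.0082). With a random block it was not called. Cyp39a1, an oxysterol hydroxylase of a side route, fell by 0.75 ± 0.08 with SQ1 and by 0.57 ± 0.08 with pravastatin, on the log2 scale. Amacr, the racemase ahead of peroxisomal side-chain shortening, changed by -0.54 ± 0.04 and -0.35 ± 0.04.

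Abcd3, a transporter of the peroxisomal membrane, had log2 ratios of 0.67 to 1.00 with SQ1 and of -0.20 to 0.25 with pravastatin, so its arrays did not overlap between the drugs. It rose by 0.81 ± 0.04 with SQ1 (adjusted p = 1.6e-11) and was at 0.05 ± 0.04 with pravastatin (adjusted p = 0.40), a difference of 0.76 ± 0.06 (adjusted p = 2.1e-08). Slc27a2, an acyl-CoA synthetase, changed by -0.43 ± 0.05 with SQ1 and by -0.66 ± 0.05 with pravastatin. Its SQ1 call was lost with arrays scaled to one spread (-0.32, adjusted p = 0.082), and its difference of 0.22 ± 0.07 (adjusted p = 0.022) with slide as a random block (adjusted p = 0.063). Scp2, the peroxisomal thiolase that releases the shortened bile acid, changed by -0.41 ± 0.05 and -0.35 ± 0.05. Over the list, 4 enzymes were higher and 2 lower with SQ1 than with pravastatin, where 18.4% of all genes were higher and 19.5% lower.

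**Figure D4:**
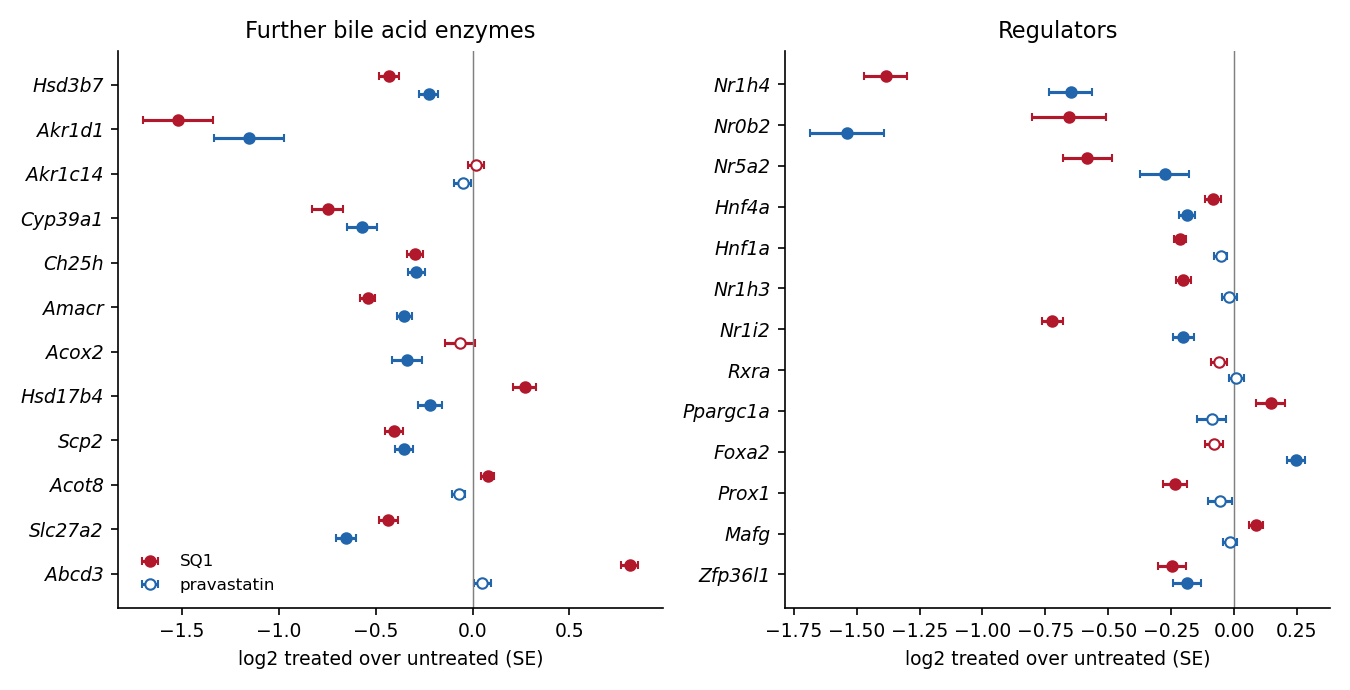
Log2 change of treated over untreated with its SE for 12 further bile acid enzymes (left) and 13 regulators (right), SQ1 in red above pravastatin in blue, with filled circles for genes called and open circles for genes not called. Nr1h4 lies furthest left with SQ1 and Nr0b2 with pravastatin among the regulators, and Abcd3 furthest right with SQ1 among the enzymes.

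Of 15 regulators listed, 13 were tested. With SQ1, 9 fell and 2 rose (median -0.22), where 31.2% of all genes fell and 32.6% rose. With pravastatin 6 fell and 1 rose (median -0.09), where 19.6% of all genes fell and 19.4% rose. Klb, the co-receptor of Fgfr4, has no probe that could be named, and Fgf15 did not pass the filter on dim probes. The bile acid sensor Nr1h4 had log2 ratios of -1.78 to -0.93 with SQ1 and of -0.87 to -0.35 with pravastatin, which did not overlap. It fell by 1.38 ± 0.08 with SQ1 (adjusted p = 1.0e-10) and by 0.65 ± 0.08 with pravastatin (adjusted p = 8.9e-06). The difference was -0.74 ± 0.12 (adjusted p = 8.7e-05), and -0.20 (adjusted p = 0.11) with arrays scaled to one spread.

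Nr0b2, the repressor of Cyp7a1 and Cyp8b1 that Nr1h4 induces, fell more with pravastatin. Its log2 ratios were -1.08 to -0.34 with SQ1 (median -0.63) and -2.13 to -0.14 with pravastatin (median -1.65). Pravastatin replicate 1 was the array at -0.14, and the other 7 lay at or below -1.41. The estimates were -0.66 ± 0.15 with SQ1 (adjusted p = 7.6e-04) and -1.54 ± 0.15 with pravastatin (adjusted p = 2.2e-07), or -2.57 with pravastatin from Agilent's processed signals. The difference of 0.88 ± 0.21 (adjusted p = 0.0024) was 0.57 within the first culture series (adjusted p = 0.10) and 1.09 without pravastatin replicate 1 (adjusted p = 1.1e-06).

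Of the activators, Nr5a2 changed by -0.58 ± 0.10 with SQ1 (adjusted p = 3.9e-05) and by -0.28 ± 0.10 with pravastatin (adjusted p = 0.032), where 6 of 8 arrays lay below 0. The pravastatin call was lost without any 1 of replicates 2, 3, 7 and 8 (adjusted p up to 0.10) and within the first culture series, at -0.08 with an adjusted p of 0.46. Hnf4a changed by -0.08 ± 0.03 with SQ1 (adjusted p = 0.026) and by -0.19 ± 0.03 with pravastatin (adjusted p = 1.2e-04). The SQ1 call for Hnf4a was lost without any 1 of SQ1 replicates 3, 7 and 8 (adjusted p up to 0.078). Nr1i2 (PXR), a xenobiotic receptor that can lower Cyp7a1, fell by 0.72 ± 0.04 with SQ1 and by 0.20 ± 0.04 with pravastatin. Foxa2, a hepatic pioneer factor, rose by 0.25 ± 0.04 with pravastatin (adjusted p = 3.2e-05) and was at -0.08 ± 0.04 with SQ1 (adjusted p = 0.065).

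Members also differed in how they varied among arrays of the same drug. Correlations over the 8 arrays of a drug were taken on log2 ratios freed of the dye term. For Cyp8b1 and Baat they were 0.93 with SQ1 and 0.87 with pravastatin. Without the 2 arrays farthest from the median they were 0.90 and 0.76. For Slc27a5 and Cyp8b1 the correlation was -0.81 with SQ1 and 0.74 with pravastatin, and -0.72 and 0.48 without those 2 arrays. These are descriptions over points that share culture series and, beyond the dye term removed, dye orientation, and the drugs share untreated cultures. By the lower of the 2 correlations, the genes with symbols most like Cyp8b1 were the transporter Slco1a4 (0.98 with SQ1, 0.99 with pravastatin), Pbld1 (0.98 and 0.97) and Ang2 (0.97 and 0.97). Their estimates were -1.82, -2.01 and -1.22 with SQ1 and -0.56, -0.64 and -0.65 with pravastatin. Those most like Cyp7a1 were Bcorl1 (0.90 and 0.95), Gigyf1 (0.89 and 0.85) and Kcnk10 (0.84 and 0.95). That likeness rested in part on single arrays: without the 2 farthest, Gigyf1 was at 0.88 with SQ1 and -0.15 with pravastatin.

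Both culture series gave the same direction for every called change of a member. With SQ1, the fall was larger in the second series for Cyp8b1 (-2.31, against -1.81 in the first), Cyp7b1 (-0.86 against -0.48) and Baat (-1.93 against -1.54), and smaller for Slc27a5 (-1.99 against -2.29). The tests of the difference, second minus first, gave -0.49 ± 0.06 for Cyp8b1 (adjusted p = 8.5e-05), -0.38 ± 0.06 for Cyp7b1 (adjusted p = 8.7e-04), -0.39 ± 0.07 for Baat (adjusted p = 0.0019) and 0.30 ± 0.10 for Slc27a5 (adjusted p = 0.046). These are 3 members called down, where 8.71% of all genes were, and 1 called up, where 6.04% were. With pravastatin the difference was called for Cyp8b1 (-0.40 ± 0.06, adjusted p = 0.0023) and Baat (-0.31 ± 0.07, adjusted p = 0.021), where 3.17% of all genes were called down. The Slc27a5 call was lost with no filter on dim probes (adjusted p = 0.052), and Agilent's processed signals added Fgfr4 with SQ1 (-0.19, adjusted p = 0.029). Median centring in place of loess took both Baat calls away, at -0.18 with SQ1 (adjusted p = 0.16) and -0.20 with pravastatin (adjusted p = 0.26). The SD of log ratios over all genes was itself larger in the second series: 0.409 to 0.427 per array against 0.352 to 0.367 with SQ1, and 0.273 to 0.290 against 0.217 to 0.262 with pravastatin. Its part in these differences was not tested.

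**Figure D5:**
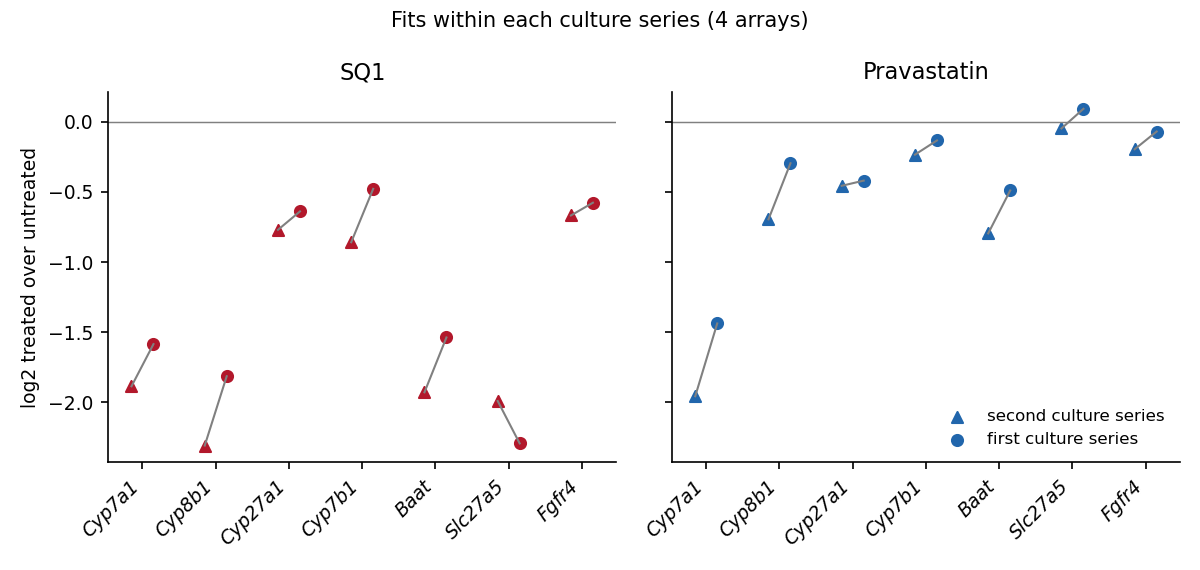
Log2 change of treated over untreated fitted within the second (triangles) and the first (circles) culture series, 4 arrays each, for SQ1 (left) and pravastatin (right). With SQ1, Slc27a5 is the one gene whose triangle lies above its circle, at -1.99 against -2.29.

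The untreated cultures differed between the series as well, in a comparison added after the values had been seen. It set 4 untreated cultures of the second series against 4 of the first. Slc27a5 was at 15.54 to 15.60 in the second series and at 13.73 to 14.00 in the first, higher by 1.72 ± 0.05 on the log2 scale, 3.30-fold (adjusted p = 4.4e-07). It ranked 5 from the highest of the 20760 differences, and 31.3% of all genes were called in either direction. Cyp7a1 was higher by 0.37 ± 0.04 (adjusted p = 4.2e-04), Cyp8b1 by 0.36 ± 0.06 (adjusted p = 0.0024) and Cyp27a1 by 0.16 ± 0.05 (adjusted p = 0.037). Baat differed by 0.34 ± 0.12 (adjusted p = 0.058), Cyp7b1 by -0.06 (adjusted p = 0.50) and Fgfr4 by -0.08 (adjusted p = 0.12), none of them called. With Agilent's processed signals the Baat difference was 0.45 (adjusted p = 0.022). Baat levels did not overlap between the series, at 16.84 to 17.01 in the second and 16.24 to 16.83 in the first. The culture at 16.24 was the control of replicate 5, which read 16.64 on the SQ1 array and 15.84 on the pravastatin array. Thus the SQ1 fall of Slc27a5 was measured from starting levels 3.30-fold apart, and it was -1.99 on the log2 scale in the second series and -2.29 in the first.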

How the data were processed

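RNA of 16 pairs of cultures was hybridised in 2 colours. The authors scanned the arrays with Agilent Feature Extraction (10.7.1.1, per the file headers). Median signals and backgrounds were deposited as intensity in arbitrary units beside, per the file headers, a log10 ratio of processed signals. The table of values that the authors deposited holds log2 ratios of treated over untreated, under drug names exchanged relative to those of the scanner files.

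Median signals stood in for the planned means, which are not among the columns used. With limma 3.58.1 in R 4.3.3 (jsonlite 2.0.0, statmod 1.5.0 and version 1.17.8 of data.table), background was removed by normexp (offset 50) and each array normalised by loess, with controls at weight 0. Of 30367 probes, 17998 took a symbol from RefSeq GRCr8. Probes were kept where at least 6 of 32 channel measurements lay well above background, and the brightest stood for a gene, giving 20760 genes. No spot was saturated. Median signals were 588 to 663 (A555, over backgrounds of 306 to 315) and 790 to 1076 (A647, over 339 to 348), and the number of arrays limits the precision.

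A limma model with drug and dye terms was fitted over all 16 arrays, in two-sided tests. On simulated data for the SQ1 comparison over 20760 genes, 100% of changes of 0.5 and of 1 on the log2 scale were recovered, and 7.83% of calls were false. The simulation changed 50 genes at each of -1, -0.5, 0.5 and 1, with errors independent between arrays. In the real data 63.8% of genes were called with SQ1, and same-numbered arrays share an untreated culture. These rates therefore check the code and do not describe these data. Named genes were the members, up to 4 called genes with the largest change per list and drug, Nr0b2, Nr1h4, Nr5a2, Hnf4a, Insig1, and the 3 genes most like Cyp7a1 and Cyp8b1. A further gene named by this rule is not reported here. Members and lists were chosen with earlier results of these data known. Same-numbered arrays share a control number per their file names, and their residuals correlated at 0.142 to 0.629, each above the 0.1 taken to mean that numbers pair the samples. Replicates 2, 7 and 8 had a higher correlation with some other number (0.360, 0.391 and 0.330). Alternatives were other backgrounds, normalisations, filters, blocks, culture series, left-out replicates and the authors' deposited values, taken under the drug whose scanner files they match and not the one their columns name.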

Additional observations from a re-analysis of the deposited data

Results flagged for a closer look

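In 42 sets of 8 arrays, 1 for each drug and each member or named pathway gene, an array far from its group was looked for by Dixon's criterion, which chance meets in about 5% of such sets. All 3 that met it were pravastatin replicate 1. Cyp7a1 was at -0.48 there, with the nearest array at -1.72. Nr0b2 was at -0.14, with the nearest at -1.41. Foxa2 was at 0.52, with the nearest at 0.28. Without that array the pravastatin estimates were -1.88, -1.74 and 0.22, and each stayed called. That array also had 27 spots left out as non-uniform, against 0 to 7 on the others, and the part of this in the values was not tested.

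The drug effect differed between the culture series, second minus first, by -0.49 for Cyp8b1, -0.38 for Cyp7b1, -0.39 for Baat and 0.30 for Slc27a5 with SQ1, and by -0.40 for Cyp8b1 and -0.31 for Baat with pravastatin. Series, scan day and slide cannot be told apart.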

How the results depend on the processing

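For each drug comparison 29 alternatives were run, and for each comparison of culture series 5. Many of these could not move a member's estimate against untreated. Each member has 1 probe, well above background throughout, so other filters and the mean of probes gave the same ratios. Block and series terms left these estimates in place, as did leaving out an array of the other drug. The deposited values repeat Agilent's processed signals. Of 203 alternative values of the members' changes in each comparison, 0 changed their call or direction with SQ1, 2 with pravastatin (Cyp7b1 and Fgfr4 within the first series, leaving 4 members called) and 2 in the difference between the drugs. The number of genes called with pravastatin was 8081, and 4016 within the first series. For the difference it was 7866, and 4321 with arrays scaled to one spread or 4839 within the first series. That scaling called 1 member higher with SQ1 (Cyp7a1, 0.76) and turned the difference for Cyp27a1 to 0.10, for Amacr to 0.051 and for Insig1 to -1.50. With no filter on dim probes, 0 members were called up between series with SQ1 (Slc27a5, adjusted p = 0.052), and with median centring 1 member stayed called down with pravastatin. With 1 array left out, 12535 to 13277 genes were called with SQ1, 7013 to 8226 with pravastatin and 7165 to 7969 for the difference, and the members' counts did not move. With the replicate number as a random block (correlation 0.39), as the pairing asks, 13072, 8009 and 9884 genes were called, and as a fixed block 14347, 10057 and 9869. Neither block changed a member's call in a drug comparison; beyond the members, the fixed block also called Foxa2 with SQ1 (-0.08, adjusted p = 0.0076) and the drug differences of Akr1d1 (0.0030), Cyp39a1 (0.027), Nr5a2 (4.7e-05) and Hnf4a (0.043), and the random block those of Nr5a2 (0.010) and Hnf4a (0.027). Among the regulators, 8 alternatives took the pravastatin call of Nr5a2 away and 7 the SQ1 call of Hnf4a. Slide and drug cannot be told apart.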
